A study of Mus musculus with 6 samples.

Results

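NF-kB is a family of transcription factors held in the cytoplasm of resting cells by inhibitors of the IkB family. Inflammatory cytokines, microbial products and damage signals activate the IkB kinases, the inhibitors are degraded, and the freed dimers enter the nucleus and switch on cytokine, chemokine, adhesion and survival genes. Several of its targets encode its own subunits and inhibitors, which closes feedback loops. In the intestinal epithelium NF-kB takes part in barrier defence and in the response to injury, and in senescent cells it drives much of the secreted inflammatory mixture known as the senescence-associated secretory phenotype. The 8 genes described here were taken as a given list out of the 31319 genes in the count matrices and were matched to mouse symbols through their Ensembl identifiers. They comprise 3 subunit genes (Nfkb1, Nfkb2 and Relb), 3 inhibitors or modulators (Nfkbia, Nfkbiz and Tnfaip3) and 2 target genes whose products act on leukocytes (Cxcl1 and Icam1). On GRCm38 (GENCODE M21) the subunit genes lie at chr3:135584655-135691547 (Nfkb1, ENSMUSG00000028163), chr19:46304320-46312385 (Nfkb2, ENSMUSG00000025225) and chr7:19606217-19629438 (Relb, ENSMUSG00000002983). The inhibitors and modulators lie at chr12:55489410-55492647 (Nfkbia, ENSMUSG00000021025), chr16:55811375-55838899 (Nfkbiz, ENSMUSG00000035356) and chr10:19000910-19015657 (Tnfaip3, ENSMUSG00000019850), and the targets at chr5:90891241-90893115 (Cxcl1, ENSMUSG00000029380) and chr9:21015985-21028817 (Icam1, ENSMUSG00000037405).

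The data were single-nucleus RNA counts from jejunal organoids, epithelial cultures grown from the crypts of C57BL/6 mice aged 8 to 12 weeks. All organoids were kept in medium conditioned by mouse embryonic fibroblasts. The fibroblasts were either quiescent through serum deprivation (QCM, 3 samples) or senescent after X-ray irradiation or doxorubicin (SCM, 3 samples), and the labels do not say which inducer was used for which sample. The comparison asked whether the senescent medium moved the NF-kB genes in the epithelium, and the deposited clusters 0 to 14 were used to ask where in the epithelium these genes were highest. The labels do not tie replicates to separate mice, so p-values measure the spread between these samples, which may be technical.

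The 38154 nuclei gave 4071926 to 41035733 unique molecular identifiers (UMIs, the counted transcripts) per sample, with medians of 1578 to 8260 per nucleus. SCM replicate 1 held only 430 nuclei. Of its barcodes, 175 (40.7%) also occurred in QCM replicate 1, against at most 0.358% in any other pair of libraries. The profiles behind a shared barcode had a median Pearson r of 0.006 over 3000 genes, and 40 of the 175 pairs lay in the same cluster. Ribosomal protein transcripts took 14.2%, 4.96% and 10.4% of the UMIs in the QCM samples and 4.22%, 2.64% and 7.30% in the SCM samples. A list of 8 epithelial genes summed to between 2720 and 4290 counts per 1000000 UMIs (CPM), against at most 17.9 CPM for 12 immune genes and 14.5 CPM for 7 endothelial genes. The 11 fibroblast genes summed to 38.9 CPM in SCM replicate 2 and to at most 9.08 CPM in the others, and the matrix gene Fn1 alone made up 32.5 of those 38.9 CPM. No gene of these lists was at 0 in all samples.

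The DNA motif that NF-kB dimers bind was looked for next to the start sites of the members. The 10-letter NF-kB consensus was searched on both strands in RefSeq windows of 300 bases, 250 before and 50 after each start (build GRCm38.p6). Of 32851 such windows, 4.51% held a match. Windows were at hand for 5 members, and 4 of them (Nfkb2, Nfkbia, Tnfaip3 and Cxcl1) held a match in at least 1 window. That count is by gene, and some genes had several windows, whereas the 4.51% is by window. The window of Icam1 and a second window of Tnfaip3 had none, which says only that these letters are not in those windows. All 5 members with a window, Icam1 among them, had their highest mean level in the same cluster, as described further on. The search therefore could not set members apart by that level. The stretches around the matches of the 4 genes are printed here. Each is written 5′ to 3′ on the strand of the gene, with the matching letters in capitals and overlapping matches merged.
Nfkb2, chr19:46304663-46304770, plus strand: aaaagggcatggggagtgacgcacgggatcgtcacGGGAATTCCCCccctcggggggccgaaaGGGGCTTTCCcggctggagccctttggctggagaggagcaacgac
Nfkbia, chr12:55492632-55492711, minus strand: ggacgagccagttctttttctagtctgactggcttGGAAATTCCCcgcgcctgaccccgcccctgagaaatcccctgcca
Tnfaip3, chr10:19015378-19015570, minus strand: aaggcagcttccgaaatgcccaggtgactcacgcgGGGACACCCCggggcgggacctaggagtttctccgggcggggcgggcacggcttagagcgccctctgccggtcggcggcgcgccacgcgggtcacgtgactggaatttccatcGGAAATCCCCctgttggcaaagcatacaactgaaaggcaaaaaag
Cxcl1, chr5:90891139-90891219, plus strand: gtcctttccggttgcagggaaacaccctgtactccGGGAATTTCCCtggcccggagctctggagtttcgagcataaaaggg

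Nfkb2 had 3 windows, for 3 start sites, and each held a match, but only the stretch of its first window is printed. Its other windows overlap each other, and the single match of the last is a site that both contain. The first match began 39 bases before the start site in the first window of Nfkb2, 29 in Nfkbia, 125 in Tnfaip3 and 71 in Cxcl1. The stretches of Nfkb2 and Tnfaip3 held separate matches apart from each other, whereas Nfkbia held a single one. In Nfkb2 and Cxcl1 the same letters, shifted by 1 base, also matched on the other strand.

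No member passed the test between media over all nuclei. Counts were summed per sample and compared with edgeR's quasi-likelihood test, with p-values adjusted over the 19046 genes tested, and 0 of the 8 members had an adjusted p under 0.05 (adjusted p from 0.927 to 0.990). That test called none of all genes (0%), while 866 genes had an unadjusted p under 0.05. DESeq2 called 21 genes and limma 0, and no member was among them, though DESeq2 gave Cxcl1 no adjusted p. The estimates lay above 0, on the side of SCM, for 7 of the 8 members, beside 9255 of the 19046 genes tested. Of the 7, Nfkb1 changed sign under 1 other setting and Nfkb2 under 5.

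The subunit genes differed little between media, with Relb the most separated. Relb encodes the subunit that pairs with the product of Nfkb2 in the non-canonical branch of the pathway. Its level was 27.4, 41.9 and 39.2 CPM in the QCM samples and 46.9, 55.9 and 45.7 CPM in the SCM samples. The groups did not overlap, although the highest QCM sample and the lowest SCM sample were close. The log2 ratio of SCM over QCM was 0.31 ± 0.16 (SE, edgeR unadjusted p 0.0989, adjusted p 0.927). Nfkb1 encodes the precursor of the DNA-binding subunit of the canonical dimers. It stood at 94.7, 194 and 122 CPM in QCM and at 159, 195 and 144 CPM in SCM. Replicate 2 was highest in both media, so that the groups overlapped, and the log2 ratio was 0.14 ± 0.23. Nfkb2, the precursor of the non-canonical subunit, stood at 6.92, 4.41 and 7.23 CPM in QCM and at 6.14, 9.04 and 6.57 CPM in SCM. Its groups overlapped, with a log2 ratio of 0.05 ± 0.33.

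Among the inhibitors and modulators, Tnfaip3 was separated between media by sample, and the others overlapped. Tnfaip3 encodes A20, a ubiquitin-editing enzyme that shuts the signal off. Its level was 4.73, 7.29 and 7.53 CPM in QCM and 8.60, 12.8 and 9.33 CPM in SCM. All SCM samples lay above all QCM samples, with a log2 ratio of 0.52 ± 0.26 (edgeR unadjusted p 0.0772, adjusted p 0.927). Without the nuclei of cluster 7 the log2 ratio was 0.37, and without the 6% of nuclei with most UMIs in each sample it was 0.30. Nfkbia encodes IkB-alpha, the inhibitor that is degraded on activation and made again as an early target. Its level was 46.6, 26.6 and 26.0 CPM in QCM and 37.1, 25.9 and 33.5 CPM in SCM. QCM replicate 1 was the highest of the 6 and also had the highest ribosomal share, and the groups overlapped. The log2 ratio was -0.26 ± 0.34, and it was 0.24 without QCM replicate 1 and 0.39 with the ribosomal share in the model, so no direction is given for Nfkbia. Nfkbiz, a nuclear IkB protein that acts as a co-activator on part of the targets, stood at 51.8, 76.9 and 64.1 CPM in QCM and at 73.4, 73.1 and 78.1 CPM in SCM. The SCM samples lay close together within or just above the QCM range, with a log2 ratio of 0.08 ± 0.15.

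The 2 target genes were rare, and the size of their ratios, though not the sign, depended on single libraries. Both ratios stayed on the side of SCM when any single sample was left out. Cxcl1, a chemokine that attracts neutrophils, had 62 UMIs in all, found in 58 of the 38154 nuclei. The QCM samples held 25, 3 and 1 UMIs (0.609, 0.124 and 0.0502 CPM) and the SCM samples 4, 16 and 13 (0.982, 0.770 and 0.485 CPM). QCM replicate 1 therefore carried 25 of the 29 UMIs of its medium. The log2 ratio was 1.03 ± 0.87 (edgeR adjusted p 0.929). Without QCM replicate 1 it was 2.87 ± 0.89 with an unadjusted p of 0.0142 in edgeR, but an adjusted p of 1.00. Icam1, the surface ligand to which leukocyte integrins attach, had 144 UMIs in 130 nuclei. The QCM samples held 25, 16 and 27 UMIs (0.609, 0.659 and 1.36 CPM) and the SCM samples 13, 33 and 30 (3.19, 1.59 and 1.12 CPM). SCM replicate 1 was highest, and 8 of its 13 UMIs came from cluster 14, a cluster of 92 nuclei with a median of 39433 UMIs. Its log2 ratio of 0.93 ± 0.55 had an adjusted p of 0.927 by edgeR, and became 0.50 without SCM replicate 1 and 0.71 without the nuclei of that sample that shared a barcode. It was 0.19 without the 6% of nuclei with most UMIs, 0.29 with clusters weighted equally and 0.37 with replicates 2 and 3 alone. For Cxcl1 the ratio was 0.21 with clusters weighted equally, 1.71 by limma and 1.76 with a replicate block. It was 2.57 for Cxcl1 with the ribosomal share in the model and 2.70 with replicates 2 and 3 alone.

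**Figure D1:**
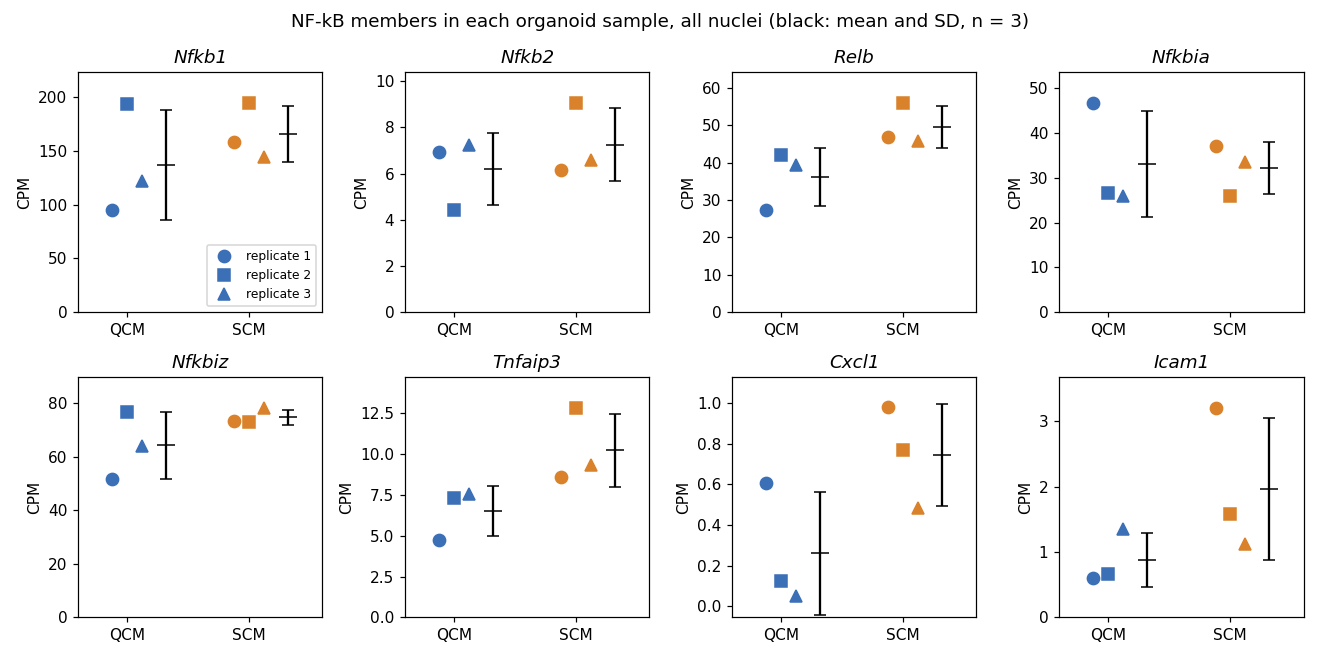
Level of each member in CPM (vertical axes, each with its own scale) for the 3 QCM samples (blue) and the 3 SCM samples (orange), with the marker shape giving the replicate number and black bars the mean and SD. Relb and Tnfaip3 are the members whose SCM samples all lie above the QCM samples, and QCM replicate 1 stands apart from the other QCM samples for Nfkbia and Cxcl1.

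The member counts can be read beside those of all genes. The CPM values of 2 of the 8 members, Relb and Tnfaip3, did not overlap with SCM higher, which held for 4.99% of all genes tested, and no member was non-overlapping with SCM lower (2.09% of all genes). In the edgeR test of all 6 samples no member had an unadjusted p under 0.05 in either direction, against 1.46% of genes higher in SCM and 3.08% of genes lower. By limma Tnfaip3 had a log2 ratio of 0.62 with an unadjusted p of 0.0416 and an adjusted p of 0.861. In edgeR without SCM replicate 1 it had 0.64 with an unadjusted p of 0.0467 and an adjusted p of 0.920. The median log2 ratio of all genes was -0.01 under the scaling used and 0.14 when library size alone set the scale. With that other scaling the ratios of Relb and Tnfaip3 were 0.45 and 0.66, and thus stayed above that median. The 11 measured genes of the fetal list, which mark regenerating epithelium, summed to 164, 87.7 and 121 CPM in QCM and 342, 717 and 234 CPM in SCM, without overlap. None of its 9 tested genes passed in edgeR or DESeq2 (which gave 2 of them no adjusted p), and 7 had an unadjusted p under 0.05 in edgeR, all higher in SCM. That number was 2 of 7 tested without the 6% of nuclei with most UMIs, and 4 of 9 without SCM replicate 2 or with the ribosomal share in the model. Their part in the member ratios was not tested.

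**Figure D2:**
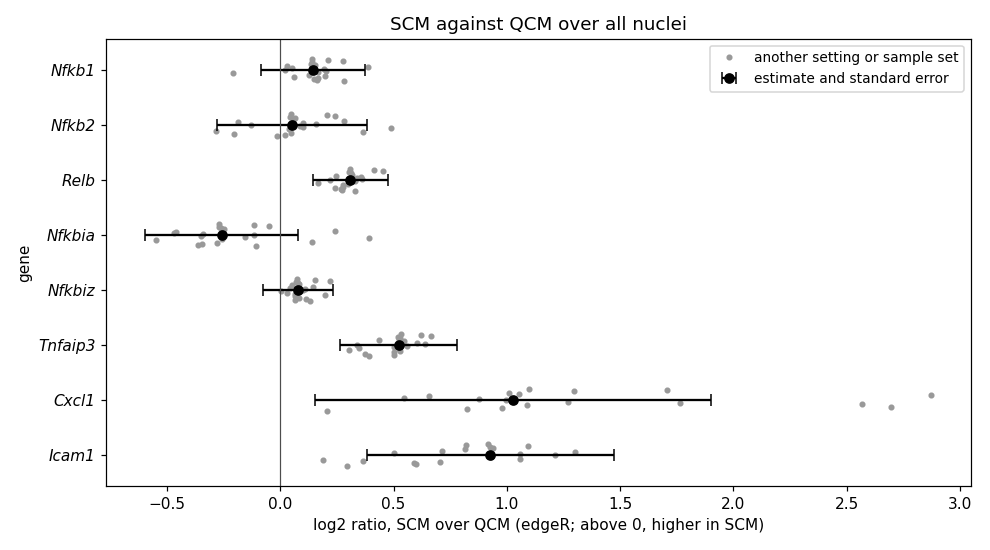
Log2 ratio of SCM over QCM for each member over all nuclei (horizontal axis), with black points and bars for the edgeR estimate and its standard error and grey points for the other settings and sample sets. Relb and Tnfaip3 stay on the right of 0 throughout (0.17 to 0.45 and 0.30 to 0.66), whereas Nfkb1, Nfkb2 and Nfkbia have points on both sides.

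The same comparison was made per nucleus at a fixed depth, because nuclei differed in UMIs between samples. Each nucleus of at least 1000 UMIs was thinned to 1000 UMIs, which kept 324 to 10354 nuclei per sample, and the expected share of nuclei with at least 1 UMI of the gene was taken. For Relb the share was 2.37%, 3.81% and 3.54% in QCM and 3.63%, 4.70% and 4.04% in SCM. The lowest SCM sample fell among the QCM samples, and a 2-sided exact permutation test gave p = 0.2, where 3 against 3 samples can give no p under 0.1. For Tnfaip3 it was 0.448%, 0.686% and 0.738% in QCM and 0.594%, 1.04% and 0.883% in SCM (p = 0.3 by the same exact permutation test). None of the 8 members was free of overlap at this depth. Without thinning the shares were 12.8% ± 7.23 (SD, n = 3) in QCM and 14.4% ± 4.85 in SCM for Relb. No cluster is known to lack these genes, so a background level from free RNA could not be set.

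The wider pathway gave the same count of calls. The pathway genes were grouped into 9 role lists of 127 genes with the members, of which 101 could be tested and 0 passed, in either direction. Their median log2 ratio was 0.16 beside -0.01 for all genes, and 71 of 101 estimates lay above 0, beside 9255 of 19046 for all genes. Of the 101 genes, 18 did not overlap with SCM higher and 4 with SCM lower, beside 4.99% and 2.09% of all genes. An unadjusted p under 0.05 was reached by 6 genes higher in SCM and 5 lower, beside 1.46% and 3.08% of all genes. These lists were drawn up with earlier results of these data known.

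All 12 kinases and kinase partners had estimates above 0, with a list median of 0.17. These signs, like those of the whole pathway, were taken from the edgeR test of all 6 samples and not from the other settings. Ikbkb, the catalytic kinase of the canonical branch, was at 69.8 ± 17.6 CPM (SD, n = 3) in QCM and 91.2 ± 7.06 CPM in SCM, a log2 ratio of 0.25 ± 0.17, and Ripk2, which relays the NOD receptors, had 0.32 ± 0.21. Of the other subunits, Rela had a log2 ratio of 0.20 ± 0.34 and Rel of 0.22 ± 0.18, both with overlapping samples. Among the other inhibitors, Tnip3, a partner of A20, stood at 0.585, 0.824 and 2.16 CPM in QCM and 1.96, 7.89 and 3.02 CPM in SCM, a log2 ratio of 1.77 ± 0.65 (edgeR unadjusted p 0.0271, adjusted p 0.927). Its groups overlapped by 1 sample on each side. Nfkbib, a further IkB, had a log2 ratio of -0.57 ± 0.42.

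Receptors and adaptors pointed both ways. Tnfrsf1a, the main receptor of TNF, was at 24.7, 16.6 and 18.4 CPM in QCM and at 11.8, 13.6 and 15.7 CPM in SCM. All SCM samples were below all QCM samples, with a log2 ratio of -0.72 ± 0.29 (edgeR unadjusted p 0.0387, adjusted p 0.927). Tlr3, a receptor for double-stranded RNA, was without overlap in the other direction at 11.4 ± 2.29 CPM in QCM and 19.5 ± 4.89 CPM in SCM, with a log2 ratio of 0.59 ± 0.26. Of the adaptors, Irak2 had a log2 ratio of 0.35 ± 0.16 without overlap and Myd88 one of -0.68 ± 0.41 with overlap.

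The cytokines held the smallest p of the pathway. Tnf, the cytokine that feeds back on the pathway through its receptors, stood at 1.24, 1.65 and 1.66 CPM in QCM and at 4.91, 6.01 and 3.40 CPM in SCM. Every SCM sample exceeded every QCM sample, with a log2 ratio of 1.49 ± 0.34 (edgeR unadjusted p 0.00237, adjusted p 0.927). Csf1, the macrophage growth factor, rested on 142 UMIs and had a log2 ratio of 1.56 ± 0.55, again without overlap. Of the chemokines, Cxcl16 was at 8.03 ± 1.52 CPM in QCM and 18.4 ± 5.92 CPM in SCM (log2 ratio 0.98 ± 0.33), while Ccl9 had a log2 ratio of -1.17 ± 0.49. Both were free of overlap, in opposite directions.

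Surface and mucosal defence genes were also divided. Cd44, a hyaluronan receptor of crypt cells, was at 70.9, 74.6 and 74.7 CPM in QCM and at 142, 217 and 118 CPM in SCM. The QCM samples were nearly equal and all lay below the SCM samples, with a log2 ratio of 0.94 ± 0.24 (edgeR unadjusted p 0.00426, adjusted p 0.927). Pigr, which carries IgA across the epithelium, was at 475 ± 41.1 CPM in QCM and 310 ± 83.4 CPM in SCM, a log2 ratio of -0.78 ± 0.28 without overlap. The antimicrobial lectins Reg3g and Reg3b had log2 ratios of -1.29 ± 0.45 and -2.42 ± 0.94. Reg3b reached 12.4 CPM in QCM replicate 1 and 2.22 CPM or less elsewhere, so its ratio leaned on that library. Lists of mature cell types also had negative median log2 ratios, of -1.23 for the Paneth list (4 of 7 tested genes with an unadjusted p under 0.05 in edgeR), -1.07 for the enterocyte list (2 of 10) and -1.10 for the enteroendocrine list (4 of 10). No adjusted p of all genes passed, and the part of these cell types in the ratios of the defence genes was not tested.

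**Figure D3:**
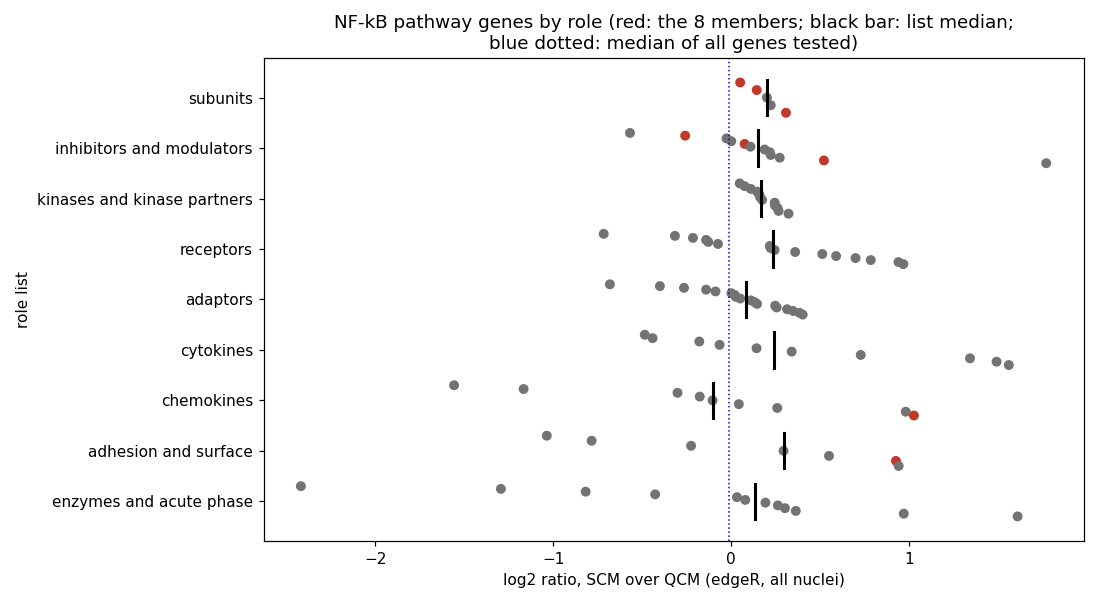
Log2 ratio of SCM over QCM (horizontal axis) of the 101 pathway genes tested, in rows by role, with the 8 members in red, list medians as black bars and the median of all genes tested as a dotted blue line. The 12 kinases lie right of 0, as do the 5 subunits, while chemokines, surface genes and enzymes reach far to both sides.

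Within clusters no member was called either. Counts were summed per sample and cluster, and 13 clusters had enough nuclei for a fit (9 with all 6 samples and 4 with 5). The members gave 59 gene-cluster tests, of which 0 passed, as did 0% of the 130109 tests of all genes, by edgeR, and DESeq2 called 0 of the 59. Of the 59, 1 had an unadjusted p under 0.05, beside 5.76% of all tests. It was Relb in cluster 8, a cluster in which the enterocyte markers Alpi, Sis, Apoa4 and Mttp were at 2 times or more their level in the other nuclei, and hence enterocyte-like. Relb there stood at 58.6, 54.0 and 56.5 CPM in QCM and at 82.8, 97.3 and 74.6 CPM in SCM. The groups did not overlap, with a log2 ratio of 0.58 ± 0.25 (edgeR unadjusted p 0.0406, adjusted p 0.813), although SCM replicate 1 contributed only 10 UMIs. The share of all genes without overlap within a cluster was not taken. By DESeq2 no member test had an unadjusted p under 0.05. The same held in edgeR with the ribosomal share in the model, without QCM replicate 3 and without SCM replicate 2. In cluster 7 the log2 ratios were 0.17 for Nfkb1, 0.01 for Nfkb2, 0.06 for Relb, -0.16 for Nfkbia, -0.29 for Nfkbiz and 0.46 for Tnfaip3, none with an unadjusted p under 0.05 in edgeR.

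The clusters share their samples, so estimates of a gene in several clusters are not independent. Nfkb1 was above 0 in 13 of 13 clusters (0.03 to 0.59) and Tnfaip3 in 5 of 5 (0.36 to 0.81). Relb was above 0 in 10 of 11, and Nfkbia below 0 in 11 of 11 (-0.56 to -0.15). Without QCM replicate 1, however, Nfkb1 was above 0 in 8 of 13, Relb in 6 of 11 and Nfkbia below 0 in 4 of 11, and with the ribosomal share in the model Nfkb1 was above 0 in 3 of 13, Relb in 6 of 11, Tnfaip3 in 4 of 5 and Nfkbia below 0 in 1 of 11. With no filter on low counts Tnfaip3 was above 0 in 11 of 13. Nfkb2 and Nfkbiz were split, with 4 of 7 and 7 of 12 above 0. Cxcl1 and Icam1 passed the filter on low counts in no cluster.

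Across clusters, 5 of the 8 members had their highest mean level in cluster 7. These were Nfkb2, Nfkbia, Tnfaip3, Cxcl1 and Icam1, with Relb close behind its peak in cluster 8. Without the 6% of nuclei with most UMIs the count was 3 (Nfkb2, Nfkbia and Icam1). The share of all genes with their highest mean in cluster 7 was not taken, so the count has no background. Nfkb2 and Nfkbia exceeded the next cluster by more than the larger SD of the pair, but Tnfaip3, Cxcl1 and Icam1 did not. Cxcl1 was at 1.40 ± 1.36 CPM, next to 0.707 ± 1.58 in cluster 9. Icam1 was at 3.55 ± 2.21 CPM, next to 2.27 ± 3.17 in cluster 3. Cluster 7 held 1442 nuclei (3.78% of all) and showed 7 of the 11 fetal genes measured (Clu, Anxa1, Anxa3, Ly6a, Ccn1, Ccn2 and Krt7) at 2 times or more their level elsewhere. Ankrd1, Fn1 and Col4a2, which are among its leading genes by fold, are on none of the epithelial lists. Absence from these short lists does not speak to the identity of the cluster, which is given here by its number. Its epithelial list was above that of the other nuclei in 6 of 6 samples. The clusters were built from these same nuclei, so the levels are a description and no test was made.

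**Figure D4:**
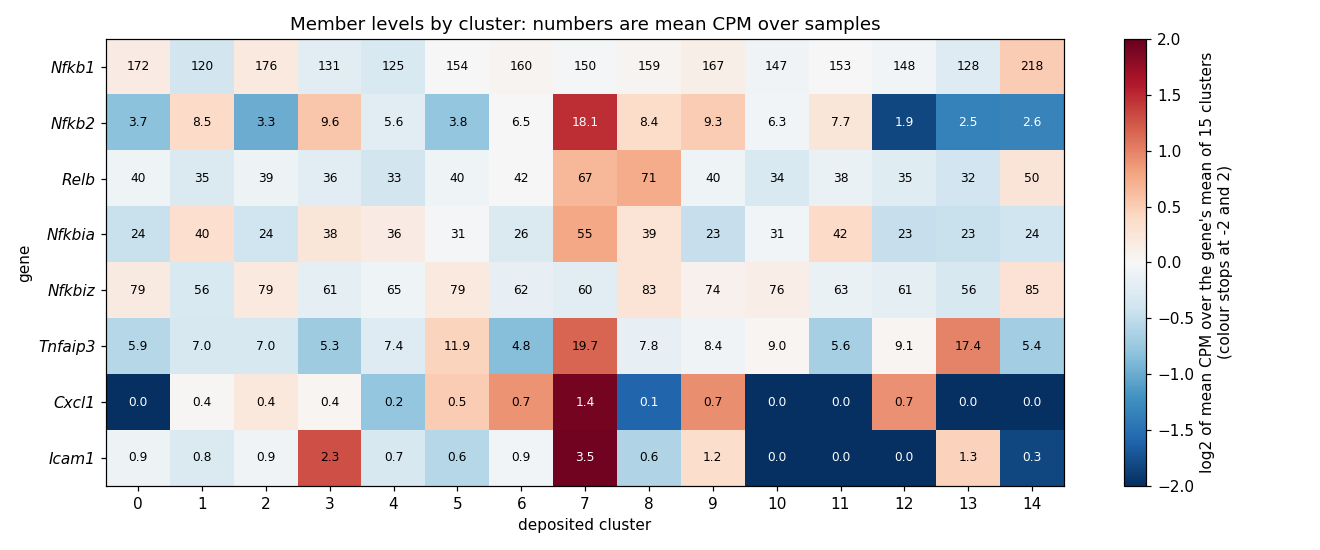
Mean CPM over samples of each member (rows) in the deposited clusters 0 to 14 (columns), printed in the cells, with colour for the log2 ratio to the gene's own mean over the 15 clusters. Nfkb2, Nfkbia, Tnfaip3, Cxcl1 and Icam1 are deepest red in cluster 7, Relb is red in clusters 7 and 8, and Nfkb1 and Nfkbiz have their highest means in cluster 14.

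Of the 6 members other than the rare Cxcl1 and Icam1, Nfkb2 had the largest fold in that cluster. It stood at 18.1 ± 8.02 CPM (SD, n = 6 samples) in cluster 7, next at 9.57 ± 2.94 CPM in cluster 3 and lowest at 1.85 ± 4.15 CPM in cluster 12. The value of cluster 12 rests on 1 UMI of the gene. By sample, cluster 7 against the other nuclei was 13.9 against 6.67, 18.8 against 3.98 and 25.0 against 6.52 CPM in QCM, and 6.51 against 6.13, 28.8 against 5.18 and 15.5 against 5.80 CPM in SCM. Cluster 7 was higher in 6 of 6 samples, by 3.17-fold over the means, though in SCM replicate 1 it held a single UMI of the gene. It contained 184 of the 924 Nfkb2 UMIs (19.9%) beside 6.26% of all UMIs. SCM replicate 2 supplied 98 of the 184, and without that library the cluster held 86 of 736 (11.7%) beside 4.45% of all UMIs.

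Tnfaip3 and Nfkbia followed the same pattern with smaller folds. Tnfaip3 was at 19.7 ± 7.43 CPM in cluster 7 and at 7.47 ± 1.73 CPM in the other nuclei, higher in 6 of 6 samples, 2.64-fold over the means. Cluster 13, with 160 nuclei, came next at 17.4 ± 12.7 CPM, which does not differ from cluster 7 beyond its spread. It held only 7 UMIs of the gene over all samples. Nfkbia was at 54.6 ± 10.8 CPM in cluster 7 and at 31.0 ± 9.04 CPM in the others, higher in 6 of 6 samples, 1.76-fold. It came next in cluster 11, a tuft-like cluster with 5 of 8 tuft markers, at 41.6 ± 12.0 CPM. Of all genes tested, 6.1% were higher in cluster 7 in every sample, and the median gene had a fold of 0.927 there.

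Relb peaked in clusters 8 and 7 alike. It stood at 70.6 ± 17.3 CPM in cluster 8 and at 66.5 ± 17.4 CPM in cluster 7, values that do not differ beyond their spread, and at 50.4 ± 10.6 CPM or less in every other cluster. In cluster 8 it exceeded the other nuclei in 6 of 6 samples, by 1.70-fold, and in cluster 7 in 5 of 6, by 1.62-fold. The exception in cluster 7 was SCM replicate 1, which had 17 nuclei there.

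Nfkb1 and Nfkbiz did not share the peak. Nfkb1 was at 150 ± 34.4 CPM in cluster 7 and 152 ± 40.4 CPM in the other nuclei, higher in 3 of 6 samples. Its highest mean was 218 ± 43.0 CPM in cluster 14 (3 samples) and its lowest 120 ± 43.0 CPM in cluster 1. Nfkbiz was at 59.6 ± 16.1 CPM in cluster 7 and 70.5 ± 10.5 CPM elsewhere, higher in 1 of 6 samples, and its cluster means ran from 55.6 to 84.7 CPM. Within samples, both genes were above the other nuclei in cluster 2 in 6 of 6 samples and in clusters 1 and 3 in 0 of 6, with Nfkb1 at 0.758-fold in cluster 1 and 1.20-fold in cluster 2. For both genes none of the 14 steps between neighbours in the order of clusters exceeded the larger SD of the pair, a spread over samples that takes no account of the clusters sharing them, and over the other members at most 1 of 14 did.

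Cluster 7 held 17 of the 62 Cxcl1 UMIs and 33 of the 144 Icam1 UMIs. Of the 33 Cxcl1 UMIs in SCM, 14 (42.4%) lay in cluster 7, against 3 of 29 (10.3%) in QCM. Of the 76 Icam1 UMIs in SCM, 28 (36.8%) lay there, against 5 of 68 (7.35%) in QCM. Cluster 7 also held more of the RNA in SCM, 11.0% of the UMIs against 3.39% in QCM, and by SCM sample the share was 3.77%, 16.4% and 7.93%. SCM replicate 2 had 4.06% of its nuclei in the cluster, and without the 6% of nuclei with most UMIs its share of UMIs was 2.71%, beside 4.35% and 4.76% in the other SCM samples and 2.76% to 3.24% in QCM. SCM replicate 2 supplied 10 of the 14 Cxcl1 UMIs and 20 of the 28 Icam1 UMIs, so the split rests largely on that library, and it was not tested. In SCM replicate 1 the cluster held 0 of 4 Cxcl1 and 1 of 13 Icam1 UMIs. In QCM replicate 1, which had most Cxcl1 UMIs, 1 of 25 was in cluster 7 (3.52% of the UMIs of all genes in that sample) and 10 were in cluster 1 (34.4%). Cluster 1 showed 4 enterocyte and 4 Paneth markers at 2 times or more and is left unnamed.

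**Figure D5:**
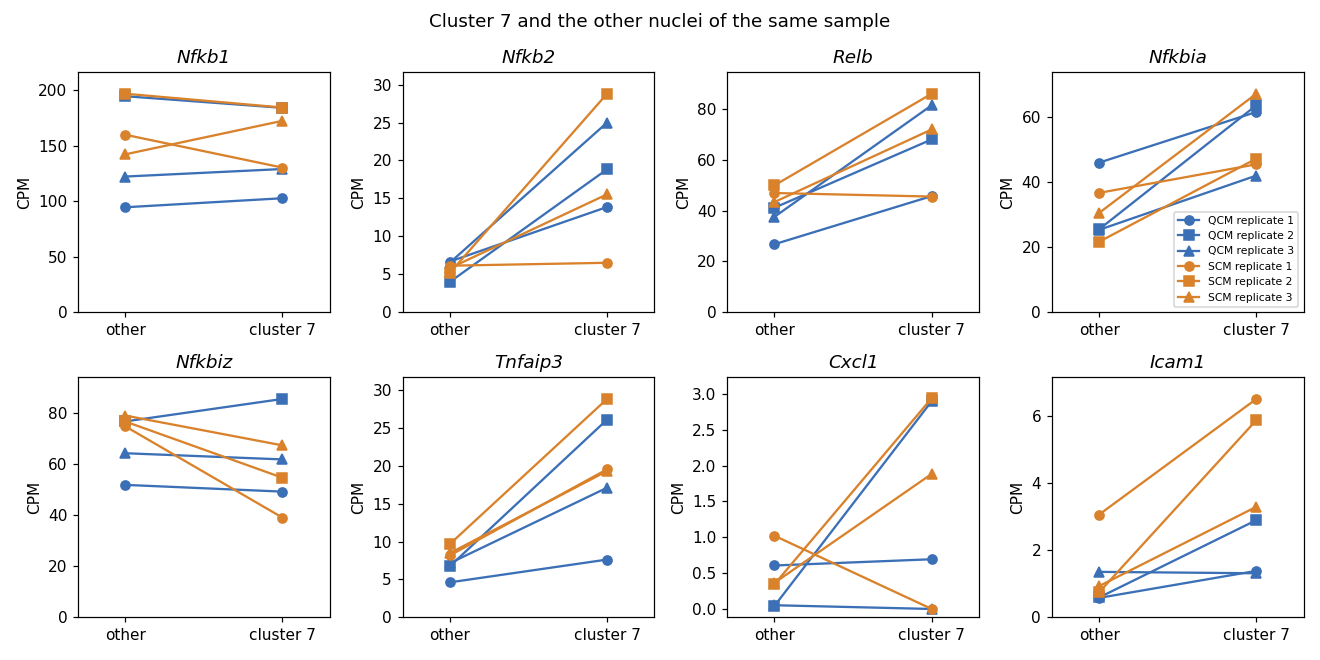
Level of each member in CPM in the other nuclei (left) and in cluster 7 (right) of the same sample, joined by a line, for the QCM samples in blue and the SCM samples in orange, with each panel on its own scale. Nfkb2, Nfkbia and Tnfaip3 are higher in cluster 7 in all 6 samples and Nfkbiz in 1, and the Cxcl1 lines rest on 17 UMIs in cluster 7.

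Very deep nuclei weighed on part of this pattern. The 6% of nuclei with most UMIs in each sample held 25.0% of all UMIs, and without them the folds of cluster 7 over the other nuclei were 1.88 for Nfkb2, 1.48 for Nfkbia, 1.27 for Relb and 1.24 for Tnfaip3. Nfkb2 and Nfkbia were then higher in 6 of 6 samples, and Tnfaip3 in 4 of 6. The fold of Nfkb1 was 1.09 with 6 of 6 samples higher, in place of 3 of 6, and that of Nfkbiz 0.849 with 2 of 6. For Icam1 it was 4.59 on 11 UMIs in the cluster, with 3 of 6 samples higher, and for Cxcl1 2.32 on 4 UMIs, with 2 of 6. In nuclei thinned to 1000 UMIs, where each nucleus counts alike, the share with a Nfkb2 UMI was 1.23% ± 0.559 (SD, n = 6) in cluster 7 and 0.617% ± 0.143 in the others, higher in 5 of 6 samples. For Nfkbia the shares were 4.82% ± 0.868 and 3.41% ± 1.29, higher in 6 of 6 samples, and for Tnfaip3 1.20% ± 0.668 and 0.712% ± 0.189, higher in 5 of 6. Median depth in SCM replicate 2 was 4912 UMIs in cluster 7 and 2521 in the other nuclei, in SCM replicate 1 it was 3831 and 3131, and in SCM replicate 3 it was 2207 and 1950. In QCM it was 7080, 2186 and 1565 in cluster 7 and 8313, 2303 and 1579 in the other nuclei.

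Sums of other gene lists were set beside these levels. The immediate early and handling stress list (Junb, Atf3, Dusp1 and others) summed to 827 to 1198 CPM in cluster 7 and to 412 to 801 CPM in the other nuclei, higher in 6 of 6 samples, with 8 of its 14 genes at 2 times or more. The immune list summed to 7.24 to 32.5 CPM there and to 3.98 to 17.4 CPM elsewhere, also higher in 6 of 6, and the fibroblast list to 1.45 to 163 CPM and 2.90 to 14.6 CPM, higher in 4 of 6. The M cell list was at 19.5 to 151 CPM against 13.6 to 39.6 CPM, higher in 5 of 6. Counted in the same way as for the stress list, these lists had 1 gene each, Csf1r (immune), Fn1 (fibroblast) and Tnfrsf11b (M cell). The part of all these lists in the member levels was not tested.

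The members did not vary as a single block over the clusters. Over 64 sample-by-cluster sums of at least 50 nuclei, on log2(CPM + 1) less the sample mean, the closest pair was Nfkb2 and Cxcl1 (Pearson r 0.48), followed by Cxcl1 and Icam1 (0.46) and Relb and Nfkbia (0.45). The most opposed pair was Nfkb1 and Nfkbia (-0.26), and Nfkb1 and Nfkb2 had -0.14. These sums share libraries and depth, so the values are descriptions. The pairs with Cxcl1 rest on a gene of 62 UMIs in all, of which 10 lay in cluster 7 of SCM replicate 2. That sum also held 98 of the 924 Nfkb2 UMIs and 20 of the 144 Icam1 UMIs. Among 12129 genes of at least 5 CPM, those most like Nfkb2 were Plk2 (0.76), Npnt (0.70) and Lama5 (0.68), and those most like Tnfaip3 were Nectin2 (0.70), Zfand5 (0.62) and Myadm (0.61). For Relb they were Flii (0.73), Apobec1 (0.70) and Tuft1 (0.70), for Nfkbia Slc9a3r1 (0.78), Snx17 (0.78) and Chmp1a (0.77), for Nfkb1 Exoc6b (0.81), Rere (0.81) and Pard3 (0.81), and for Nfkbiz Ercc6 (0.77), Ankrd11 (0.72) and Osbpl10 (0.72). The rare genes had Emp2 (0.67), Cdh13 (0.55) and Ptp4a2 (0.55) for Cxcl1, and Plat (0.59), Ubash3b (0.59) and Itgb4 (0.56) for Icam1.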

How the data were processed

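Single-nucleus RNA-seq (10x 3′ chemistry) was made from 3 QCM and 3 SCM organoid samples. According to the submitters' processing notes the authors used Cell Ranger 2.1.1 and build mm10. The authors deposited UMI counts per gene and nucleus, the cluster of each nucleus (made by them after integration), and a mitochondrial fraction, which was read only as a check. Doublet removal is not given in the sources used here and no caller was run, and leaving out the 6% of nuclei with most UMIs per sample stood in for one. The 8 members and all lists were chosen with earlier results of these data known.

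UMI counts were added up by sample, and within clusters by sample where at least 10 nuclei were present, then tested with edgeR 4.0.16 (TMM, filterByExpr, quasi-likelihood, Benjamini-Hochberg over all genes, R 4.3.3). Alternatives were DESeq2 1.42.0, limma 3.58.1, other scaling, filters and nuclei, a replicate block, and leaving out each sample. The code was tested on simulated data. Of 31319 genes, 31244 had a symbol. The standard error of an edgeR log2 ratio was computed as its absolute value over the square root of the F statistic of the test. It is approximate and can part from the p-value. Intervals cover counting and sample spread only. Named pathway genes were the 2 non-members per role list with the smallest unadjusted p, and likeness named 3 genes per member. Promoter windows came from RefSeq. Of the listed pathway genes, 6 were not analysed here.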

Additional observations from a re-analysis of the deposited data

How the results depend on the processing

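No member with an adjusted p was called under any of the 21 other settings over all nuclei or the 12 within clusters, and the pathway lists had no call under the same 21. All genes had 0 calls under each except DESeq2, which called 21. The ratio of Nfkb1 turned to -0.21 with the ribosomal share as a covariate. That of Nfkb2 turned to -0.19 without QCM replicate 2, -0.13 without SCM replicate 2, -0.28 without the 6% of nuclei with most UMIs, -0.015 with clusters weighted equally and -0.20 without cluster 7 (chosen after seeing the data, as were leaving out cluster 14 and the shared barcodes). That of Nfkbia turned to 0.24 without QCM replicate 1, 0.39 with the ribosomal covariate and 0.14 with replicates 2 and 3 alone. Leaving out 1 sample at a time gave -0.19 to 0.28 for Nfkb2 and -0.47 to 0.24 for Nfkbia. The cause was not tested. Cxcl1 had no adjusted p in DESeq2 and was not tested without cluster 7, without the deepest nuclei or at a minimum count of 50, and Icam1 not at that minimum. The number of members whose thinned shares did not overlap, 0 at 1000 UMIs, was 1 at 2000 UMIs (Relb) and 0 to 3 when 1 sample was left out: 1 if the sample was QCM replicate 1 or 3 or SCM replicate 3, 2 if it was QCM replicate 2 and 3 if it was SCM replicate 1. The number of members highest in cluster 7, 5 of 8, ranged from 4 to 6 when 1 sample was left out, and was 3 (Nfkb2, Nfkbia and Icam1) without the 6% of nuclei with most UMIs, an alternative chosen after seeing the data.

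Samples share replicate numbers, but same-numbered samples did not all deviate together (r 0.37, 0.47 and -0.13 over 19046 genes), so the numbers were not taken as pairs, although QCM and SCM replicate 1 also shared barcodes. The median mitochondrial percent also rose with the number in both media, 1.01, 1.83 and 3.71 in QCM and 0.803, 2.21 and 3.54 in SCM. With a replicate block 0 genes were called and 1180 had an unadjusted p under 0.05, against 866 without it, and within clusters 0 members were called. The log2 ratios with the block were 0.17 (Nfkb1), 0.10 (Nfkb2), 0.31 (Relb), -0.16 (Nfkbia), 0.08 (Nfkbiz), 0.50 (Tnfaip3), 1.76 (Cxcl1) and 0.93 (Icam1). SCM replicate 1, with 430 nuclei, limits the depth of every cluster of its sample.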

Other observations

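A further 20 pathway genes were too rare for the test and are given by their UMI totals over all 6 samples. They ran from 3 UMIs for Csf3 and Lcn2, a colony-stimulating factor and a neutrophil-associated lipocalin, to 54 for Ccl5, a chemokine for lymphocytes. Il6 and Il1b, the inflammatory cytokines most often read as NF-kB outputs, had 42 and 27 UMIs, and Cxcl2, the neighbour of Cxcl1 in function, had 45. These genes were named after their totals were seen.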
